A study of Mus musculus with 18 samples.

Results

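The step from day 1 to day 2 after adenovirus delivery was examined in gp38+ stromal cells, the cell fraction that bears podoplanin, sorted from mouse salivary glands. It compares 3 samples taken at day 2 (replicates 16 to 18) with 3 taken at day 1 (replicates 13 to 15), which are 6 of the 18 samples in the series. They were chosen by the time point in their titles, and 13223 of 55401 gene identifiers were counted well enough to be tested. All the animals were wild-type Balb/c mice of 8 to 12 weeks. The submandibular glands of both groups had been cannulated through the duct with 100000000 to 1000000000 plaque-forming units of replication-defective adenovirus 5 (Ad5), a procedure used to induce ectopic tertiary lymphoid structures. Uninfected glands (hour 0, replicates 10 to 12) are given beside them for levels only. Each sample came from a mouse of its own, and libraries were made from 10 ng of total RNA. No group was cannulated without virus, so that virus and procedure cannot be told apart, and a replication-defective vector models the early response to a virus rather than a spreading infection. The mice of day 1 and of day 2 are different animals, so the step is a difference between groups and not a course within an animal.

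Podoplanin-bearing fibroblasts make the collagen scaffold of the gland and are also the stroma from which the chemokine-producing cells of tertiary lymphoid structures arise. Type I interferons and interferon-gamma act through STAT factors, which switch on antiviral genes, guanylate-binding proteins and the machinery that presents peptides on MHC class I. After tissue damage, fibroblasts are known to pass from an inflammatory state to one of proliferation and matrix repair.

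From day 1 to day 2, interferon-gamma-responsive genes, MHC class I genes, heat-shock genes, p53 target genes and ribosome biogenesis genes were lower. Collagens, several matrix genes, the chemokine gene Cxcl12 and the NR4A nuclear receptor genes were higher. Resting fibroblast genes were split, with 11 that rose, among them Pdgfra, and 7 that fell, among them Gsn. Of the 13223 genes tested, 5141 changed (38.9%), of which 2451 rose (18.5%) and 2690 fell (20.3%). Counts of gene groups below are to be read against these shares or, where given, against counts of a matched set of genes. Here a gene rose or fell where edgeR's quasi-likelihood test gave a Benjamini-Hochberg adjusted p under 0.05. Levels are CPM, counts relative to library size, scaled by TMM, and folds are log2 ratios with their standard errors (SE). The samples of day 1 and day 2 did not overlap in 53.9% of all tested genes. That held for 2380 of the genes that rose and 2468 of those that fell.

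The balance of rises and falls depended on the scaling. With DESeq2 size factors 64.2% of the changed genes were higher, and with library totals 64.7%, against 47.7% with TMM. Those scalings moved the median log2 fold change of all genes from -0.09 to 0.08 and 0.07. No gene that passed the test in both ways of scaling changed direction, which shifts of this size could hardly bring about. Counts of gene groups from another fit are to be read against all genes in that fit. With DESeq2 size factors 1616 of the 13223 genes fell and with library totals 1519, against 2690. Without replicate 13, 14, 15, 16, 17 or 18, falls numbered 1209, 1895, 1309, 1230, 1082 or 1464, and rises 2000 to 3062.

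Background differed between the groups. Counts on 1502 sensory receptor genes, which fibroblasts should not transcribe, were 0.719, 1.14 and 0.549 per 10M nuclear counts and kb of exon at day 1, and 3.16, 3.23 and 3.36 at day 2. The day 2 samples were thus all higher, by 4.04 times on average, with hour 0 at 1.43 (two-sided exact permutation p = 0.1, which 3 against 3 cannot go below, and 0.119 adjusted over 19 such measures). Depth was also lower at day 2, with 4398234 to 6313619 counts against 8734113 to 10635986 at day 1. For this reason a gene was tested only at 5 CPM or more in 3 of the 6 samples. Of those tested, 1543 reached 5 CPM in day 2 samples alone, 1146 of them called as rises, and 31 in day 1 samples alone. Such genes had to differ. They are part of the counts and shares of all tested genes and of the gene group counts, and are marked where named below. The remaining 11649 reached 5 CPM in both groups, and 1305 of these rose while 2675 fell. A single sample at 5 CPM in a group was enough for this. Some of these genes therefore still passed the filter mainly through day 2. Gene groups whose tested members all lie among the 11649 are to be read against the rises and falls of those genes. A rate estimated from the receptor genes and each gene's exon length would account for a median of 1.41% of a tested gene's counts at day 1 and 5.65% at day 2.

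Exon length moved with the step as well. The median log2 fold change was -0.34 in the shortest of 5 equal classes of exon length, -0.22, -0.11 and 0.03 in the following ones and 0.14 in the longest. In the shortest class 11.5% of genes rose and 24.0% fell, whereas 30.7% rose and 13.6% fell in the longest. Among genes that reached 5 CPM in both groups the medians climbed as well, from -0.42 in the shortest class to 0.05 in the longest. Medians of gene groups below are for that reason also given relative to genes in the same class of length. With the estimated background subtracted from each sample, 4362 genes changed, of which 2115 rose and 2247 fell. By the same subtraction 16 interferon-gamma-responsive, 18 MHC class I, 13 heat-shock, 10 p53 target and 19 ribosome biogenesis genes fell and 12 collagens rose, while the pan-leukocyte rises went from 4 to 2.

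**Figure D1:**
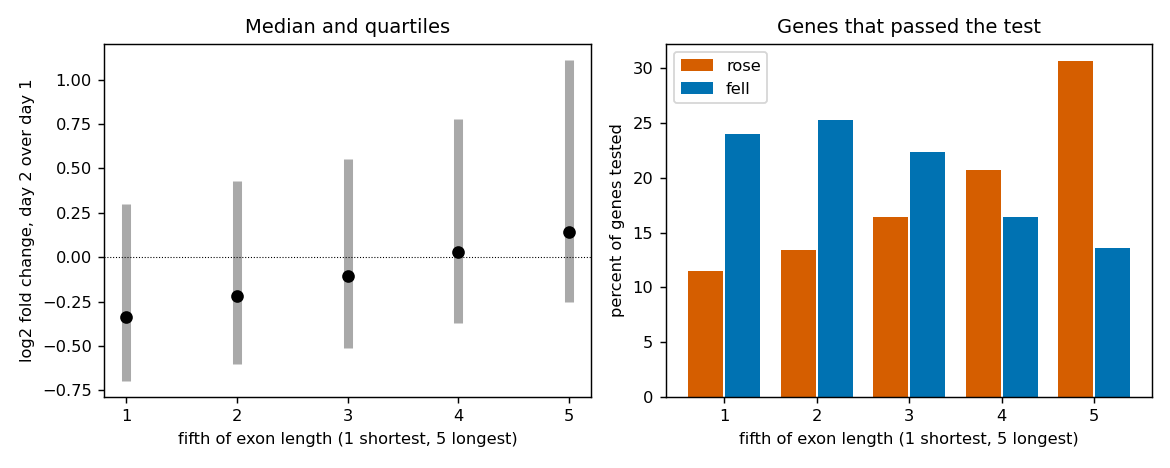
Change from day 1 to day 2 by exon length, over 13223 genes tested, from the shortest class (1) to the longest (5). Left, the median (points) and quartiles (bars) of the log2 fold change climb from -0.34 to 0.14. Right, the percent of genes that rose climbs from 11.5% to 30.7% and the percent that fell drops from 24.0% to 13.6%.

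The interferon-gamma-responsive group had the lowest median change of the immune groups. Of its 27 members 24 were tested, and 17 of them fell and 0 rose. Among all 11649 genes counted in both groups 2675 fell. Their median log2 fold change was -1.20, and -1.10 relative to genes of like length. Without day 1 replicate 14 or without day 2 replicate 17, 9 fell, and 2 rose without replicate 14. Falls among all tested genes went from 2690 to 1895 without replicate 14 and to 1082 without 17. Every tested member reached 5 CPM in both groups. In these bulk samples fewer cells of a kind and less RNA per cell cannot be told apart.

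Cxcl9 (ENSMUSG00000029417, chromosome 5, 92321347 to 92328079, minus strand) encodes a chemokine that draws CXCR3-bearing T cells. It stood at 430.2, 1312 and 306 CPM at day 1 and at 87.2, 63.9 and 104 CPM at day 2 (log2 fold change -3.00 ± 0.57, adjusted p = 0.00122). Every day 2 sample lay below every day 1 sample, and day 1 replicate 14 stood far above 13 and 15. Gbp7, a guanylate-binding protein of cell-autonomous defence, measured 336, 546 and 310.2 CPM and then 144, 139 and 152 CPM (log2 fold change -1.45 ± 0.22, adjusted p = 5.27e-05). Its day 2 samples were tightly grouped under all of day 1. Igtp, an immunity-related GTPase that guards against intracellular parasites, went from 480.5, 887 and 377 to 214, 155 and 213 CPM (log2 fold change -1.58 ± 0.29, adjusted p = 0.00047). Tgtp1, a GTPase of the same family with a near-identical neighbour that could share its reads, went from 109, 195 and 80.7 to 24.5, 21.6 and 30.6 CPM (log2 fold change -2.32 ± 0.42, adjusted p = 0.000477). In each of these genes replicate 14 was the highest of day 1. Values of single members of the Gbp, Tgtp, H2-Q, Klk and Scgb families are uncertain, since near-identical copies can split or share reads. Even so, day 2 means stayed above hour 0, at 85.0 against 9.68 CPM for Cxcl9, 145 against 50.9 for Gbp7 and 194 against 34.5 for Igtp, with no test of that gap here. Irf1, the transcription factor that starts this program, had 294, 511 and 260.3 CPM at day 1 and 379, 333 and 237 CPM at day 2, and did not pass the test (-0.17, adjusted p = 0.675).

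MHC class I genes fell nearly throughout. Of 20 listed and tested members 19 fell and 0 rose, with a median of -0.93, or -0.72 relative to genes of like length. Leaving out 1 sample left 13 to 18 falls, the fewest without day 2 replicate 17. H2-Q6, a non-classical class I gene with close paralogs in the same cluster, was at 889, 989 and 929.6 CPM at day 1 and 206, 215 and 241 CPM at day 2 (log2 fold change -2.09 ± 0.31, adjusted p = 7.95e-05). These groups were far apart and each was compact. Tap2, a subunit of the transporter that carries peptides into the endoplasmic reticulum, was at 310.5, 406 and 282 and then 104, 86.6 and 124 CPM (log2 fold change -1.67 ± 0.20, adjusted p = 3.51e-06). Psme1, which encodes a part of the proteasome activator PA28, dropped from 495, 472 and 382 to 179.8, 167 and 207 CPM (log2 fold change -1.28 ± 0.21, adjusted p = 9.84e-05). Tapbpl, an editor of the peptides loaded, was at 46.8, 65.8 and 36.4 and then 18.3, 19.6 and 21.5 CPM (log2 fold change -1.32 ± 0.20, adjusted p = 5.82e-05). The light chain gene B2m fell by less (2209.8 to 1168 CPM, -0.92, adjusted p = 0.00147). Nlrc5, the activator of class I transcription, was the member that did not pass (388 to 300.5 CPM, -0.37, adjusted p = 0.4). Of the 10 class II genes 7 were tested and 1, Cd74, the invariant chain, fell (log2 fold change -1.75 ± 0.58, adjusted p = 0.0275). It was at 18.0, 80.3 and 16.2 CPM at day 1 and 6.67, 8.19 and 18.3 CPM at day 2, with overlap, and without day 1 replicate 14 the log2 fold change was -0.45 (adjusted p = 0.406). Without that sample 3 of the 7 rose and 0 fell, and their median turned from -0.44 to 0.38.

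The type I interferon-stimulated antiviral genes fell less and not as a body. All 40 listed genes were tested, of which 18 fell and 0 rose, with a median of -0.53, or -0.41 relative to genes of like length. The count moved to 12 with DESeq2 size factors and to 11 with library totals. Without 1 sample it was 6 (replicate 13), 16 (14), 11 (15), 11 (16), 7 (17) and 9 (18), so that the count of calls rested on the full set of samples. Falls among all tested genes were also fewer without 1 sample, at 1082 to 1895 against 2690. Bst2, which tethers virions to the cell surface, was at 508, 381 and 458 CPM at day 1 and 188, 152 and 206 CPM at day 2 (log2 fold change -1.30 ± 0.23, adjusted p = 0.000251). Dtx3l, a ubiquitin ligase of the antiviral response, was at 245, 266 and 249 and then 115, 109.8 and 138 CPM (log2 fold change -1.06 ± 0.15, adjusted p = 3.39e-05). Both genes had every day 2 sample below every day 1 sample. Samd9l, a restriction factor, and Ifi44, an interferon-induced protein, fell by similar amounts (-0.96 and -1.01). Other antiviral effectors held closer to their day 1 level. Rsad2, which makes an antiviral nucleotide, was at 615, 479 and 656 CPM at day 1 and 787, 663 and 494 CPM at day 2 (0.15, adjusted p = 0.611), and the GTPase gene Mx1 was at 300.2, 276 and 319.6 and 455, 320.5 and 280.3 CPM (0.24, adjusted p = 0.478). Ifit1, a sensor of foreign RNA caps, was at 591, 363 and 492 and 445, 355 and 386 CPM (-0.29, adjusted p = 0.291). Whether the 2 interferon groups differed from each other was not tested, and their promoters share the same core motif.

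The interferon and MHC class I groups were set beside their promoter sequences. RefSeq promoters on GRCm38.p6 (250 bases before to 50 after each start) were at hand for 27025 genes with 32851 promoters. The core of the interferon-stimulated response element was searched on both strands as GAAANNGAA and found in 8.56% of all promoters. It was found in 13 of 20 promoters (65.0%) of 17 matched interferon-gamma-responsive genes, and in 12 of 15 (80.0%) of those of the group that fell. In the type I group it was in 19 of 33 promoters (57.6%) of 29 matched genes, and in 6 of 17 (35.3%) of those that fell. In the MHC class I group it was in 5 of 19 promoters (26.3%) of 17 matched genes. NF-kB sites (GGGACTTTC, GGGAATTTC or GGGAAATTC, both strands) were in 0.82% of all promoters and in 3 of 20 (15.0%) of the interferon-gamma-responsive ones. The 150 bases before the start of 4 genes that fell are shown, chosen among the called genes with the lowest p that hold the core in that stretch, with the core in capitals. In Gbp7 and H2-T23 it reads on the opposite strand.
Gbp7 (chr3:142530186-142530335, plus strand): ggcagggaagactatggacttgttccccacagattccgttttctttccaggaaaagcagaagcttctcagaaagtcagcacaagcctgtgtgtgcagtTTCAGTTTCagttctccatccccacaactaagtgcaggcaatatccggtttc
Igtp (chr11:58199406-58199555, plus strand): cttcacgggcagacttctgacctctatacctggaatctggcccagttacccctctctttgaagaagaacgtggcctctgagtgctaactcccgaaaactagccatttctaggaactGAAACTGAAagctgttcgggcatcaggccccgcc
H2-T23 (chr17:36032702-36032851, minus strand): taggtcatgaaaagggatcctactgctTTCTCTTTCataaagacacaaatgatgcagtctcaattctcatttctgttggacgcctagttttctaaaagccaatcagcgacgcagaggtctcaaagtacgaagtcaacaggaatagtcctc
B2m (chr2:122147537-122147686, plus strand): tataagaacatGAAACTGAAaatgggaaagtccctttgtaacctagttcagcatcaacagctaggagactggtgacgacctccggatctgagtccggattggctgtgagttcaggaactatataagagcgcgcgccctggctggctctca
The core began 52 bases before the start in Gbp7, 34 in Igtp, 123 in H2-T23 and 139 in B2m. A match is a description of the letters and not a measured binding site.

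Inflammatory genes divided. Among 20 cytokine and acute-phase genes, 10 fell and 2 rose, 1 of the rises passing the filter in day 2 samples alone. The median was -0.63, and -0.35 relative to genes of like length. Without replicate 13 or 17 only 6 fell, and without 17 the rises were 0. Lcn2, the siderophore-binding protein lipocalin 2, was at 993, 1016 and 699 CPM at day 1 and 244, 156 and 123 CPM at day 2 (log2 fold change -2.37 ± 0.45, adjusted p = 0.000999), against 1.40, 1.67 and 4.90 CPM at hour 0. Tslp, a cytokine of barrier tissues, was at 53.03, 57.7 and 35.6 and then 17.5, 21.3 and 13.1 CPM (log2 fold change -1.497 ± 0.31, adjusted p = 0.00101). The groups did not overlap for either gene. Il6 stood at 176, 83.9 and 143 CPM at day 1 and 519.8, 355 and 172 CPM at day 2. Its day 2 samples were widely spread and the lowest lay inside the day 1 range, and the difference did not pass (log2 fold change 1.38 ± 0.61, adjusted p = 0.0842). It passed with DESeq2 (adjusted p = 0.0473), with limma-voom (0.0176), with a fit of the 6 samples (0.0159), with a stricter filter of 20 CPM (0.0376) and without replicate 18 (0.0427). Il1b rose from 6.57, 1.72 and 4.62 to 9.50, 10.7 and 9.09 CPM (log2 fold change 1.18 ± 0.40, adjusted p = 0.0249), a low level throughout, and that call was lost without replicate 17 (adjusted p = 0.0515). Il1a rose as well (0.983 to 5.01 CPM, 2.33, adjusted p = 0.0171), though it reached 5 CPM at day 2 alone.

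Of 16 neutrophil-attracting and inflammatory chemokine genes 11 were tested, all counted in both groups, and 3 fell and 0 rose. Beside these stand 2675 falls and 1305 rises among all 11649 genes so counted. Cx3cl1, which encodes fractalkine, was at 114, 143 and 122 CPM at day 1 and 60.7, 42.5 and 43.2 CPM at day 2 (log2 fold change -1.38 ± 0.18, adjusted p = 9.52e-06). Cxcl16, a membrane-bound chemokine, was at 131, 122 and 106 and then 46.8, 48.2 and 60.4 CPM (log2 fold change -1.21 ± 0.16, adjusted p = 1.36e-05). Both fell with no overlap of the groups. Cxcl3 fell by 2.83-fold with overlap (77.1, 12.9 and 38.4 against 21.5, 14.9 and 9.44 CPM, adjusted p = 0.04), a call lost with DESeq2 size factors (0.0653), with library totals (0.065) and without any one sample other than replicate 14. The monocyte chemokine gene Ccl2 was at 1161, 632 and 849 CPM at day 1 and 507, 416 and 416 CPM at day 2, and did not pass although the groups were apart (-0.98, adjusted p = 0.086). The neutrophil chemokine gene Cxcl1, at 210.5 and 286 CPM, did not pass either (0.44, adjusted p = 0.215). Among 18 NF-kB factors and feedback genes, all counted in both groups, 2 rose and 2 fell, or 5 and 2 with DESeq2 size factors. In the reported fit the rises were near the share of all genes so counted and the falls below it. Birc3, an inhibitor of apoptosis, rose (85.0 to 154 CPM, 0.86), as did Rel, an NF-kB subunit (0.91). Icam1, the leukocyte adhesion molecule, fell from 371, 308 and 286 to 118, 126 and 92.1 CPM (log2 fold change -1.52 ± 0.22, adjusted p = 2.68e-05), and so did Tnip1, a brake on NF-kB signalling (-0.78), the latter a call lost without replicate 13 (adjusted p = 0.0518) or 18 (0.0602).

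The lymphoid stromal genes, those of the fibroblasts that organise lymphoid tissue, fell more often than they rose, and 2 of their homing chemokines moved in opposite directions. Of 21 listed genes 16 were tested, 8 fell and 2 rose, with a median of -0.70 (-0.42 relative to genes of like length). Cxcl13 (ENSMUSG00000023078, chromosome 5, 95956951 to 95961068, plus strand), whose product draws B cells, was at 608, 589.8 and 331 CPM at day 1 and 134, 85.9 and 83.7 CPM at day 2 (log2 fold change -2.34 ± 0.34, adjusted p = 8.37e-05). It was at 17.1, 14.0 and 10.3 CPM at hour 0, so all day 2 samples lay between those of hour 0 and of day 1. Cxcl12 (ENSMUSG00000061353, chromosome 6, 117168535 to 117181367, plus strand), whose product holds haematopoietic cells in place through CXCR4, was at 59.9, 76.6 and 75.4 CPM at day 1 and 381, 378 and 361 CPM at day 2 (log2 fold change 2.40 ± 0.20, adjusted p = 6.87e-08). Its 3 day 2 samples differed by little and fell in the range of hour 0, which was 436, 346 and 417 CPM. Fap, a serine protease of activated fibroblasts, rose from 20.2, 31.5 and 27.5 to 64.2, 67.1 and 45.9 CPM (log2 fold change 1.16 ± 0.19, adjusted p = 0.000101). Il13ra1, a receptor chain for interleukin 13, fell from 173, 135 and 119.6 to 44.0, 44.8 and 72.9 CPM (log2 fold change -1.40 ± 0.21, adjusted p = 4.09e-05). Ch25h, which makes an oxysterol that guides lymphocytes, fell too (116 to 37.6 CPM, -1.63). Ccl19, the chemokine of T cell zones, had 44, 114 and 30 counts at day 1 and 28, 18 and 26 at day 2 (means of 5.42 and 3.35 CPM) and was not tested, since it missed the filter.

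Pdpn, which encodes the sorting marker, was at 442, 209 and 390.0 CPM at day 1 and 199.8, 210.4 and 222 CPM at day 2. It passed the test (log2 fold change -0.72 ± 0.22, adjusted p = 0.0133), but day 1 replicate 14 lay within the day 2 range, and the call was lost with library totals (0.0555) and without any one of replicates 13, 15, 16, 17 and 18 (adjusted p from 0.0642 to 0.223). The fibroblast markers were present in all 6 samples, their summed level 15869, 12543 and 16543 CPM at day 1 and 18681, 20009.7 and 27109.7 CPM at day 2. Of these 11 markers 5 rose and 2 fell.

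**Figure D2:**
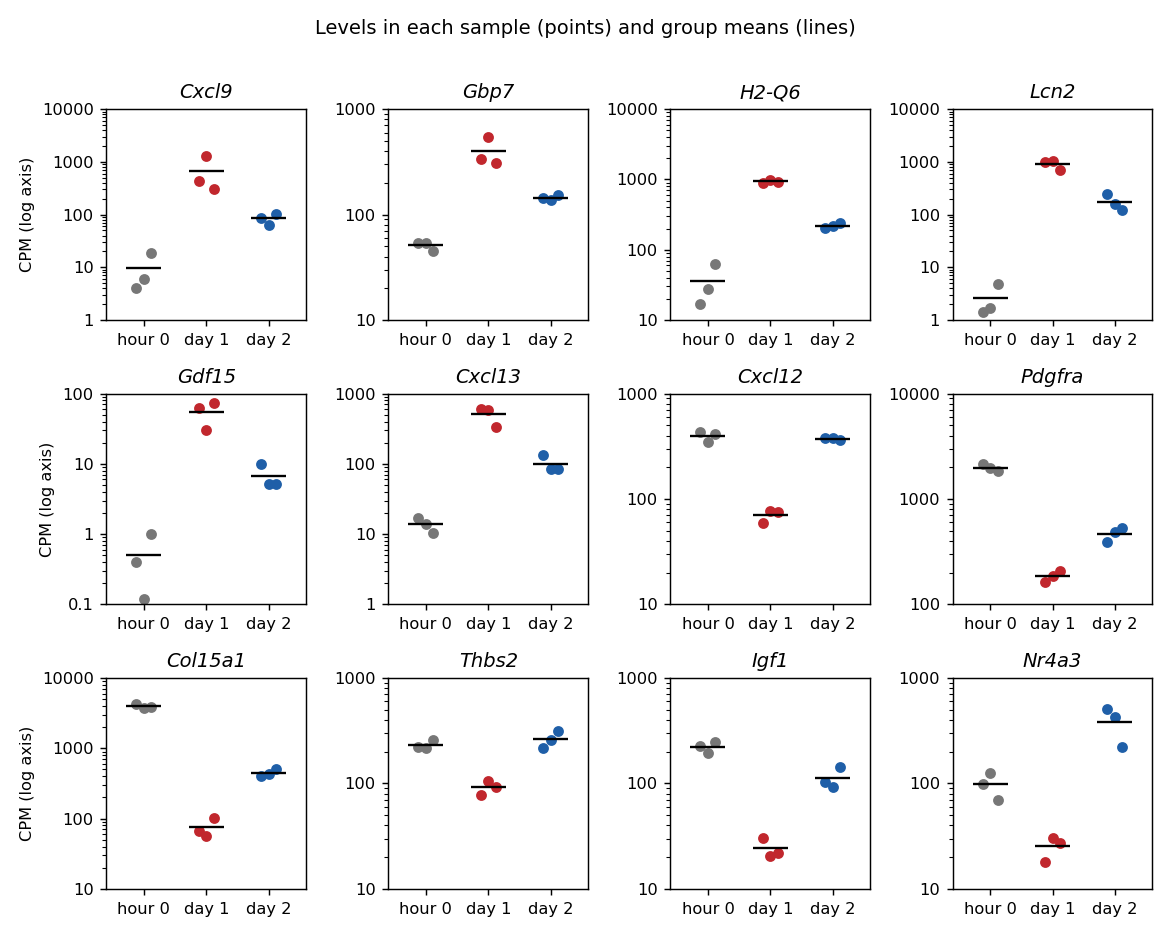
Levels of 12 genes in each sample of hour 0 (grey), day 1 (red) and day 2 (blue), as TMM-scaled CPM on log axes, with lines at the group means. In every panel the 3 day 1 and 3 day 2 samples do not overlap, as in 53.9% of all tested genes. Cxcl9, Gbp7, H2-Q6, Lcn2, Gdf15 and Cxcl13 are lower at day 2, and Cxcl12, Pdgfra, Col15a1, Thbs2, Igf1 and Nr4a3 are higher.

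Resting fibroblast genes moved in both directions. Of 30 listed genes 29 were tested, 11 rose and 7 fell, with a median of 0.23 (0.47 relative to genes of like length). Pdgfra, the receptor for platelet-derived growth factor that marks most fibroblasts, was at 165, 188 and 209 CPM at day 1 and 388, 482 and 530.4 CPM at day 2 (log2 fold change 1.32 ± 0.17, adjusted p = 1.01e-05). That level was still far under the 2153, 1948 and 1862 CPM of hour 0. Abca9, a lipid transporter gene, rose from 12.1, 15.3 and 14.1 to 24.8, 29.4 and 34.2 CPM (log2 fold change 1.10 ± 0.17, adjusted p = 6.99e-05), with hour 0 at 280.2 CPM. The Wnt modulators Sfrp2 and Sfrp4 rose furthest (19.0 to 83.3 CPM, 2.13, and 10.4 to 70.8 CPM, 2.77). Gsn, the actin-severing protein gelsolin, fell from 4693, 4814 and 3924 to 1081, 1009.5 and 1431 CPM (log2 fold change -1.93 ± 0.23, adjusted p = 3.18e-06) from an hour 0 level of 22878, 17542 and 17247 CPM. Mfap5, a microfibril glycoprotein, fell from 106, 83.0 and 125 to 43.5, 43.8 and 57.5 CPM (log2 fold change -1.12 ± 0.19, adjusted p = 0.000144). Decorin, Dcn, fell by less (-0.64), a call that was lost with both other scalings (adjusted p = 0.0589 and 0.0622). Without replicate 17 or 18 only 3 members fell, and 4 without 13 or 16. The summed level of the group dropped from 11292, 11249 and 9777 CPM to 6443, 6023 and 7237 CPM, most of it in Gsn.

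Collagen genes rose in 10 of 19, and 0 fell. All 19 were counted in both groups, where 1305 of 11649 genes rose. The median was 0.59, and 0.46 relative to genes of like length, the median exon length being 7.83 kb. Leaving out 1 sample gave 9 to 13 rises. Col15a1 (ENSMUSG00000028339, chromosome 4, 47208161 to 47313167, plus strand), a collagen that tethers basement membrane to stroma, was at 66.8, 56.8 and 102 CPM at day 1 and 399, 426 and 515 CPM at day 2 (log2 fold change 2.57 ± 0.24, adjusted p = 2.05e-07). Day 2 was nevertheless well below the 4240.4, 3704 and 3889 CPM of hour 0. Col1a2, a chain of the main fibrillar collagen, was at 1693, 1774 and 2146 and then 2799, 3442 and 4769 CPM (log2 fold change 0.97 ± 0.22, adjusted p = 0.00202), and its partner Col1a1 at 3393, 2395 and 4173 and then 4508, 5061 and 6677 CPM (log2 fold change 0.71 ± 0.22, adjusted p = 0.0152). These were the largest rises in absolute level of all genes named here. Col5a1, which sets fibril diameter, and Col6a3, a chain of the microfibrillar collagen, rose from 584 to 1271 CPM (1.12) and from 648 to 1395 CPM (1.10). Col16a1 rose by a similar amount (1.07). The basement membrane chains Col4a1 and Col4a2 did not pass (2116 to 1675 and 960.1 to 883 CPM).

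Among 31 matrix assembly and repair genes 12 rose, 1 of them counted well at day 2 alone, and 7 fell. Thbs2, a matricellular regulator of collagen fibrils, rose from 78.3, 105 and 91.9 to 219, 261 and 315 CPM (log2 fold change 1.53 ± 0.20, adjusted p = 1.05e-05). Bmp1, the protease that trims procollagen, rose from 229, 155 and 272 to 468, 492 and 493 CPM (log2 fold change 1.15 ± 0.19, adjusted p = 0.00011). The secreted adhesion proteins Postn and Fn1 rose too (161 to 509 CPM, 1.66, and 321 to 692 CPM, 1.11). Serpinh1, the collagen chaperone HSP47, fell from 2434, 1797 and 2244 to 963, 924 and 1275 CPM (log2 fold change -1.03 ± 0.17, adjusted p = 0.000132), opposite to the collagens it serves. Vcan, a large provisional-matrix proteoglycan, fell from 1349.9, 954 and 1247 to 392, 409 and 531 CPM (log2 fold change -1.41 ± 0.19, adjusted p = 1.36e-05). Of 22 matrix-degrading enzymes and inhibitors 20 were tested, all of them counted in both groups. Of these 4 rose and 3 fell, and 1 fell without replicate 13 or 17. Among all 11649 genes counted in both groups 1305 rose and 2675 fell. Plat, the tissue plasminogen activator, rose from 61.9, 61.9 and 94.96 to 176, 204 and 262 CPM (log2 fold change 1.55 ± 0.21, adjusted p = 1.36e-05), as did the aggrecanase-family gene Adamts15 (1.11). Mmp19, a matrix metalloproteinase, fell from 660.1, 461 and 659.5 to 179, 192 and 243 CPM (log2 fold change -1.53 ± 0.17, adjusted p = 1.04e-06). Mmp3, stromelysin 1, fell by 2.46-fold with overlap of the groups (5080.2, 1577 and 3760.5 against 1168, 1105 and 1964 CPM), a call lost without replicate 13 (0.0748) or 17 (0.0512).

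Of 27 listed growth factor genes 24 were tested, all counted in both groups, and 9 rose and 2 fell. The 11649 genes so counted had 1305 rises and 2675 falls. The median of the growth factor genes was 0.47 (0.64 relative to genes of like length). Igf1, insulin-like growth factor 1, was at 30.4, 20.4 and 21.9 CPM at day 1 and 103, 93.5 and 144 CPM at day 2 (log2 fold change 2.23 ± 0.24, adjusted p = 1.07e-06), with hour 0 at 229, 195 and 247 CPM. Gdf10, a TGF-beta family member, rose from 5.403, 9.24 and 13.2 to 27.5, 31.5 and 46.1 CPM (log2 fold change 1.92 ± 0.27, adjusted p = 3.33e-05). Bmp4, a bone morphogenetic protein, fell from 36.8, 43.8 and 28.3 to 15.3, 22.1 and 9.55 CPM (log2 fold change -1.22 ± 0.26, adjusted p = 0.00122), and the lymphangiogenic factor Vegfd fell from 65.6, 93.7 and 59.9 to 27, 28.2 and 23.5 CPM (log2 fold change -1.48 ± 0.27, adjusted p = 0.000338). Without replicate 17 the rises numbered 6. Contractile genes were tested in 12 of 15 and rose in 4, 1 of these counted well at day 2 alone, and fell in 2. Of all tested genes 18.5% rose and 20.3% fell. Myh11, smooth muscle myosin, rose from 3.82, 5.98 and 2.80 to 25, 31.1 and 39.7 CPM (log2 fold change 2.94 ± 0.53, adjusted p = 0.00068), and Itga8, an integrin of contractile stroma, rose from 3.33, 3.99 and 6.36 to 11.8, 14.1 and 13.1 CPM (log2 fold change 1.504 ± 0.22, adjusted p = 4.15e-05). Both remained far under hour 0, at 705 and 168 CPM. Tpm2, a tropomyosin, and Synpo2, an actin-binding protein, fell (-0.91 and -0.90), and either call was lost under several settings, among them without replicate 16 (adjusted p = 0.143 and 0.0984).

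**Figure D3:**
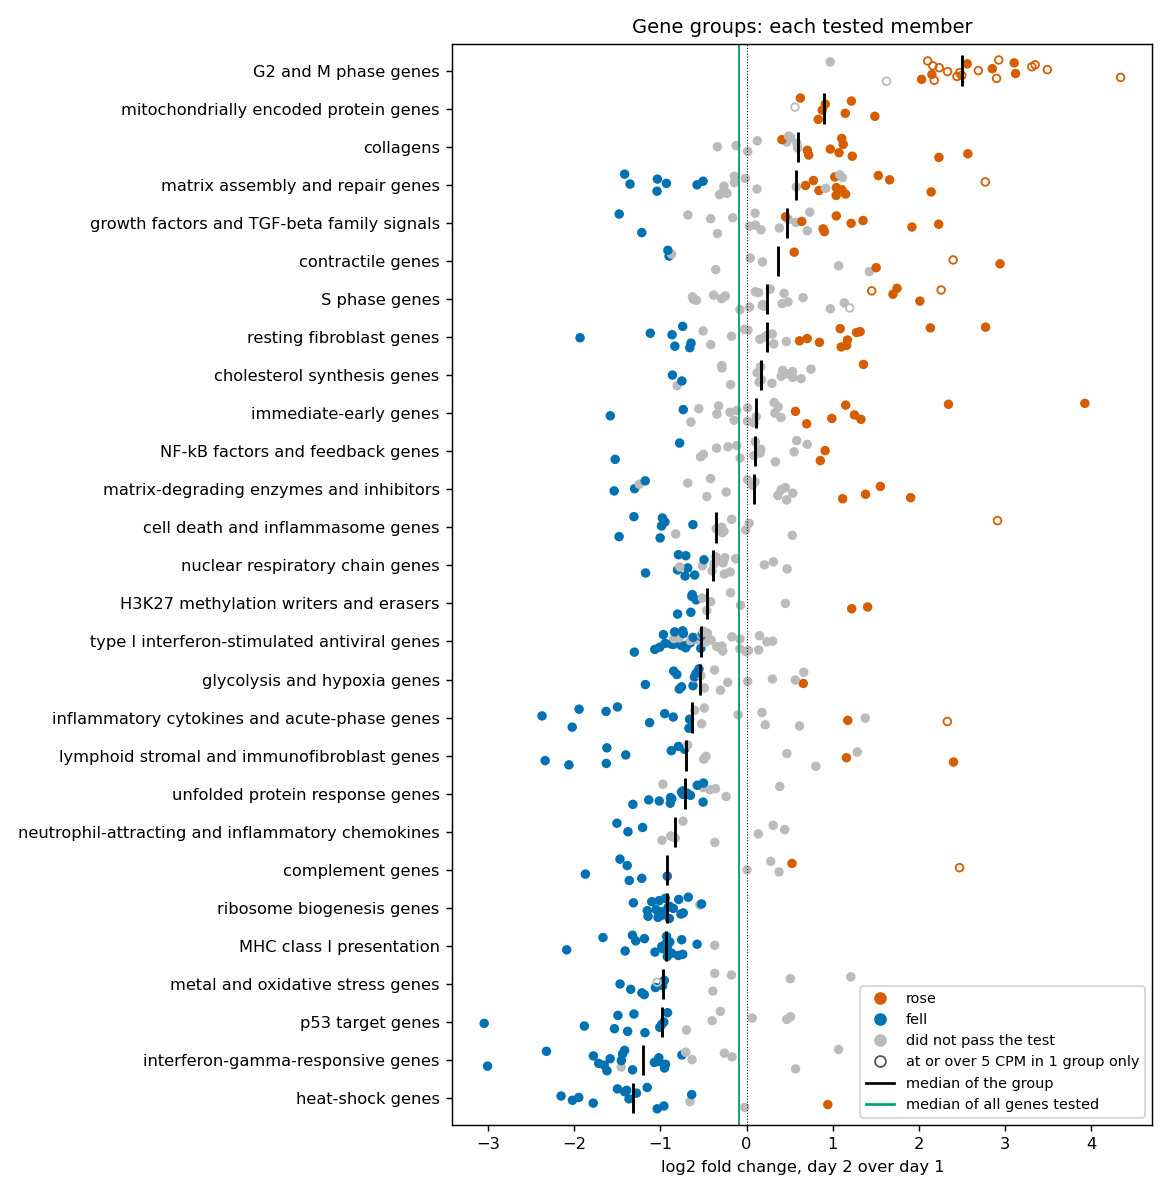
Log2 fold change from day 1 to day 2 of each tested member of 28 gene groups, ordered by their medians (black ticks), with the median of all genes tested (green line, -0.09). Orange points rose, blue points fell, grey points did not pass, and open points reached 5 CPM in 1 of the 2 time points alone; heat-shock, interferon-gamma-responsive and p53 target genes lie lowest, and G2 and M phase genes highest but mostly as open points.

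Stress genes were mostly lower at day 2. Of 16 heat-shock genes, which encode chaperones, 13 fell and 1 rose, with a median of -1.32 (-1.11 relative to genes of like length), and 11 to 13 fell when 1 sample was left out. Hsp90aa1, the inducible HSP90, was at 1108, 1212 and 941 CPM at day 1 and 317, 224 and 264 CPM at day 2 (log2 fold change -2.02 ± 0.22, adjusted p = 1.33e-06). Hspd1, the mitochondrial chaperonin, was at 213, 159 and 215 and then 80.5, 71.8 and 72.2 CPM (log2 fold change -1.39 ± 0.15, adjusted p = 8.02e-07), with hour 0 at 55.9 CPM. Cryab, a small heat-shock protein, was the member that rose (36.2 to 69.6 CPM, 0.94). Of 21 unfolded protein response genes 20 were tested, 14 fell and 0 rose, with a median of -0.71 (-0.53 relative to genes of like length). Atf4, the transcription factor of the integrated stress response, was at 438, 306 and 346 and then 239.5, 188 and 164 CPM (log2 fold change -0.88 ± 0.16, adjusted p = 0.000405). Asns, asparagine synthetase and a target of ATF4, fell from 34.1, 27.6 and 34.6 to 16.5, 10.1 and 12.3 CPM (log2 fold change -1.32 ± 0.28, adjusted p = 0.00121). In this group 6 fell without replicate 13 or without replicate 17, 7 without 16 and 9 without 15. All tested genes had 1209, 1082, 1230 and 1309 falls in those fits, against 2690.

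Genes induced by p53, the guardian of genome integrity, fell in 11 of 17 and rose in 0, with a median of -0.99 (-0.85 relative to genes of like length). Gdf15 (ENSMUSG00000038508, chromosome 8, 70629393 to 70632456, minus strand), a secreted stress signal, was at 63.0, 30.4 and 72.4 CPM at day 1, 9.83, 5.23 and 5.23 CPM at day 2 and 0.399, 0.119 and 1.01 CPM at hour 0 (log2 fold change -3.04 ± 0.55, adjusted p = 0.000449). Eda2r, a death-domain receptor, was at 47.4, 29.9 and 51.3 and then 14.0, 13.0 and 8.07 CPM (log2 fold change -1.88 ± 0.33, adjusted p = 0.000204). Sesn2, a regulator of growth under stress, fell from 67.7, 31.8 and 61.7 to 24.8, 18.8 and 14.0 CPM (log2 fold change -1.49 ± 0.29, adjusted p = 0.000594), and Aen, an exonuclease of apoptosis, fell from 96.1, 54.6 and 94.3 to 34.8, 43.5 and 30.1 CPM (log2 fold change -1.18 ± 0.24, adjusted p = 0.00101). In each of these genes day 1 replicate 14 was the lowest of its group yet stayed above day 2. The cell cycle inhibitor gene Cdkn1a fell as well, with overlap of the groups (152 to 75.9 CPM, -1.01). Without replicate 13 the group had 7 falls.

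Ribosome biogenesis genes fell in 19 of 20 and rose in 0. The median was -0.93, and -0.85 relative to genes of like length. Nolc1, a nucleolar phosphoprotein, was at 149, 74.95 and 169 CPM at day 1 and 55, 62.5 and 59.3 CPM at day 2 (log2 fold change -1.15 ± 0.22, adjusted p = 0.000585). Dkc1, the pseudouridine synthase dyskerin, was at 32.2, 27.3 and 38.4 and then 16.2, 13.3 and 18.5 CPM (log2 fold change -1.03 ± 0.20, adjusted p = 0.000565). Polr1b, a subunit of RNA polymerase I, was at 24.1, 14.9 and 22.2 and then 8.83, 8.19 and 7.73 CPM (log2 fold change -1.31 ± 0.27, adjusted p = 0.00107). Leaving out replicate 13 reduced the falls to 9 and leaving out replicate 15 to 12. Falls among all tested genes went from 2690 to 1209 and 1309 in those fits.

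Genes of mitosis were higher at day 2, at low levels. Of 28 genes of the G2 and M phases 23 passed the filter, 16 of them through day 2 alone, and such genes had to differ. Of the 7 that reached 5 CPM in both groups 6 rose. A single day 1 sample was enough for that, as in Cenpf, so the filter also favoured rises among these 7. Mki67, the proliferation antigen Ki-67, was at 9.14, 4.71 and 7.64 CPM at day 1 and 47.8, 51.5 and 56.4 CPM at day 2 (log2 fold change 2.85 ± 0.34, adjusted p = 5.69e-06). Cenpf, a kinetochore protein, was at 2.00, 6.25 and 2.12 and then 31.3, 27.4 and 30.8 CPM (log2 fold change 3.12 ± 0.41, adjusted p = 1.14e-05), and the topoisomerase gene Top2a rose as well (4.09 to 35.0 CPM, 3.10). All day 2 samples lay above all day 1 samples in these genes. Hour 0 was at 8.58, 13.0 and 24.5 CPM for Mki67, between the other groups in mean. Estimated background was 8.41% of the Mki67 counts at day 1 and 4.25% at day 2. The S phase group was tested in 26 of 28, 3 of them through day 2 alone. Of the 23 counted in both groups 3 rose and 0 fell, beside 1305 rises and 2675 falls among all 11649 genes counted in both. Uhrf1, which carries DNA methylation through replication, rose from 7.15, 4.17 and 9.91 to 24.2, 22.1 and 25.2 CPM (log2 fold change 1.75 ± 0.34, adjusted p = 0.000594), and Pole, the leading-strand polymerase, from 5.65, 5.44 and 6.89 to 20, 17.7 and 20.8 CPM (log2 fold change 1.70 ± 0.43, adjusted p = 0.0044). The replicative helicase genes Mcm2, Mcm3 and Mcm6 did not pass (-0.58, -0.61 and -0.63).

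The promoters of the G2 and M phase genes were searched for the cell cycle homology region core TTTGAA and for CCAAT, on both strands. The core was in 15 of 20 promoters of 19 matched genes against 17.9% of all promoters, and CCAAT was in 16 of 20 (80.0%) against 37.4%. For the S phase genes the core was in 3 of 27 promoters (11.1%), and E2F sites (TTTCCCGC or TTTGGCGC) were in 7 of 27 (25.9%) against 1.56% of all. The 150 bases before the start of Mki67 and Kif11, the mitotic kinesin Eg5, are shown with the core in capitals. It occurs 2 times in Mki67, beginning 116 and 98 bases before the start, and once on the opposite strand in Kif11.
Mki67 (chr7:135716380-135716529, minus strand): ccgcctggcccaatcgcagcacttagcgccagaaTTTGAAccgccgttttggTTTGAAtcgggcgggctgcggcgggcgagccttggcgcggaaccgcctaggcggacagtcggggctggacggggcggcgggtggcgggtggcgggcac
Kif11 (chr19:37376232-37376381, plus strand): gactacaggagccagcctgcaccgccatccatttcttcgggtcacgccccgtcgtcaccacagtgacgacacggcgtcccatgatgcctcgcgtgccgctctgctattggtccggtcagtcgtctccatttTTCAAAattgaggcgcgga
Kif11 itself stood at 3.82, 1.45 and 2.50 CPM at day 1 and 12.2, 12.3 and 18.9 CPM at day 2 and was counted well at day 2 alone.

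Immediate-early genes, transcription factors and phosphatases switched on within minutes of a stimulus, rose in 8 of 25 and fell in 2. Nr4a3 (ENSMUSG00000028341, chromosome 4, 48045153 to 48086447, plus strand), an orphan nuclear receptor, was at 18.1, 30.5 and 27.5 CPM at day 1 and 511, 422 and 224 CPM at day 2 (log2 fold change 3.92 ± 0.35, adjusted p = 3.07e-07). This was the largest rise of the genes named here that reached 10 CPM in both groups, and day 2 also lay above the 98.6, 127 and 69.1 CPM of hour 0. Nr4a2, of the same family, was at 37.2, 37.97 and 46.8 and then 263, 226 and 131 CPM (log2 fold change 2.34 ± 0.24, adjusted p = 5.09e-07). In both genes replicate 18 was the lowest of day 2 and replicate 16 the highest, an order shared with Il6. Fosl1, an AP-1 subunit, fell from 124, 49.1 and 145 to 43.2, 37.98 and 25.7 CPM (log2 fold change -1.58 ± 0.42, adjusted p = 0.00812), a call lost without replicate 15 (0.0587) or 18 (0.0589). Jund, another AP-1 subunit, fell from 969.6, 985 and 945 to 643, 618 and 482 CPM (log2 fold change -0.73 ± 0.17, adjusted p = 0.00196). The abundant factors Fos and Egr1 did not pass (1412 to 1864 CPM and 1569 to 1419.7 CPM). Jun rose by 1.48-fold with overlap of the groups (1609, 2101 and 1520.3 against 3037, 2773 and 1942 CPM), a call lost without replicate 13, 15, 16 or 17 (adjusted p from 0.0511 to 0.0711). Without replicate 15, 16 or 17 the group had 5 rises, and without 18 it had 11. Immediate-early genes also respond to the handling of tissue before a sort, for which these samples give no measure.

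Writers and erasers of H3K27 methylation, a repressive histone mark, were tested in 13 genes. Of these 2 rose and 5 fell. All 13 were counted in both groups, where 1305 of 11649 genes rose and 2675 fell. Ezh2, the catalytic subunit of Polycomb complex 2, was at 13.6, 5.08 and 7.95 CPM at day 1 and 21.5, 19.6 and 21.1 CPM at day 2 (log2 fold change 1.22 ± 0.28, adjusted p = 0.00216). Jarid2, which guides that complex to DNA, was at 16.0, 19.4 and 18.8 and then 51.8, 51.5 and 40.4 CPM (log2 fold change 1.41 ± 0.16, adjusted p = 1.75e-06). Of the demethylase genes, Kdm6b was at 272, 259 and 343 and then 474, 475 and 248 CPM and did not pass (log2 fold change 0.45 ± 0.22, adjusted p = 0.105). Replicate 18 lay below the day 1 range while 16 and 17 lay above it, and without replicate 18 the gene passed (0.84, adjusted p = 0.00455), as it did with DESeq2 size factors (0.0356), DESeq2 (0.0201), the stricter filter (0.0181) and without replicate 15 (0.0409). Kdm6a, at 39.9, 49.3 and 51.8 and then 47.0, 47.6 and 39.9 CPM, did not pass (log2 fold change -0.07 ± 0.16, adjusted p = 0.756). Aebp2 and Rbbp4, further Polycomb subunits, fell (-0.80 and -0.63), calls lost without replicate 15 for Aebp2 (adjusted p = 0.057) and without 16 or 17 for Rbbp4 (0.0556 and 0.0718). Without any one sample 2 or 3 genes of the group fell.

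Markers of other cells moved with the step. Glial genes, those of the Schwann cells that sheathe peripheral nerves, had a summed level of 42.1, 60.2 and 33.8 CPM at day 1 and 356, 387 and 555 CPM at day 2, with a mean of 219.7 CPM at hour 0. Of 10 listed genes 7 were tested, 3 of them through day 2 alone, and the 4 that reached 5 CPM in both groups rose. Erbb3, the neuregulin receptor of Schwann cells, was at 16.0, 14.5 and 12.3 CPM at day 1 and 66.5, 72.5 and 89.2 CPM at day 2 (log2 fold change 2.41 ± 0.25, adjusted p = 5.09e-07), and Cdh19, a cadherin of that lineage, at 8.56, 9.97 and 5.83 and then 35.5, 44.7 and 46.8 CPM (log2 fold change 2.39 ± 0.20, adjusted p = 4.45e-08). Sox10 and Ngfr, the lineage's master factor and its neurotrophin receptor, rose as well (3.51 and 3.71). Foxd3, a factor of neural crest and glia, was at 0.166, 0.362 and 0.151 and then 13.8, 13.2 and 17.2 CPM (log2 fold change 5.97 ± 0.77, adjusted p = 8.6e-06), passed the filter through day 2 alone, and at day 1 63.9% of its counts would be estimated background. In these genes the day 2 samples stood above day 1 and also above hour 0, except in Cdh19, where hour 0 was at 74.7, 64.8 and 68.5 CPM.

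The 12 largest rises by fold among well-separated genes with a mean of at least 10 CPM included the glial markers Foxd3 and Gfra3, a receptor of sensory neurons and glia (4.28), and 11 of the 12 were counted well at day 2 alone. The exception was L1cam, an adhesion molecule of nerve and glia, at 3.66, 3.99 and 5.90 CPM at day 1 and 93.2, 81.7 and 122 CPM at day 2 (log2 fold change 4.44 ± 0.33, adjusted p = 1.28e-08). Besides L1cam these rises included Aatk, a kinase of the nervous system (6.09), Sema4f and its fellow in axon guidance Plxnb3 (4.94 and 4.36), the potassium channel gene Kcna1 (4.18), the kallikrein gene Klk9 (4.81), the linker histone gene Hist1h1a (4.58), Rasgef1c (4.41) and the transporter gene Slc22a23 (4.31). At day 1 Aatk was at 0.582, 0.725 and 0.454 CPM, where 74.96% of its counts would be estimated background, and at day 2 it was at 36.2, 39.2 and 46.0 CPM, with 3.87%. The part of glial cells in these rises was not tested.

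Mural markers, those of pericytes, summed to 80.0, 63.8 and 104 CPM at day 1 and 208, 191 and 306 CPM at day 2. Of 7 tested, 2 passed the filter through day 2 alone, and 3 of the 5 that reached 5 CPM in both groups rose. Abcc9, a channel subunit of pericytes, was at 5.24, 4.53 and 5.60 CPM at day 1 and 33.7, 31.7 and 52.97 CPM at day 2 (log2 fold change 2.94 ± 0.21, adjusted p = 9.93e-09), and Mcam, CD146, which Schwann cells also bear, at 10.7, 3.17 and 5.98 and then 73.5, 74.9 and 117 CPM (log2 fold change 3.73 ± 0.50, adjusted p = 3.82e-05). Skeletal muscle markers summed to 14.5 ± 6.23 CPM at day 1 and 60.2 ± 0.725 at day 2 (SD, n = 3), a ratio of 4.15, beside 4.04 for the receptor genes. With the estimated background subtracted all 5 tested muscle genes still rose, 3 of which passed the filter through day 2 alone. Leukocyte markers stayed low, with pan-leukocyte genes at 28.4 ± 3.09 and 59.1 ± 4.22 CPM, neutrophil genes at 15.8 ± 6.76 and 42.3 ± 8.61, T and NK genes at 17.8 ± 1.83 and 42.1 ± 2.20, and B and plasma cell genes at 11.9 ± 1.66 and 35.1 ± 6.98. Ptprc, the leukocyte antigen CD45, was at 1.91, 2.63 and 3.40 CPM at day 1 and 9.33, 11.1 and 10.8 CPM at day 2 (log2 fold change 1.97 ± 0.40, adjusted p = 0.000796), counted well at day 2 alone. Blood endothelial genes were at 59.3 ± 6.93 and 90.2 ± 2.71 CPM, lymphatic ones at 13.4 ± 3.43 and 44.0 ± 4.97, erythroid ones at 5.90 ± 3.91 and 11.5 ± 1.96, and adipocyte ones at 16.5 ± 3.17 and 20.5 ± 3.27. The macrophage, monocyte and dendritic group went from 309.7 ± 76.3 to 208 ± 9.07 CPM, mostly Plac8 (319.8, 316 and 194 and then 140.0, 126 and 130.3 CPM, -1.06, adjusted p = 0.000339), which is also interferon-inducible, while Csf1r, the receptor for colony-stimulating factor 1, was at 2.24, 3.62 and 4.54 and then 8.17, 13.8 and 8.41 CPM (log2 fold change 1.54 ± 0.36, adjusted p = 0.00281).

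The summed level of secretory genes of the gland's acinar and duct cells was lower at day 2, most of it carried by Mucl2. It was 3511, 2633 and 3235 CPM at day 1 and 1380, 389 and 314 CPM at day 2, with a mean of 57037 CPM at hour 0. Day 2 replicate 16 stood above the other day 2 samples, but below all of day 1. Of 19 listed genes 10 were tested, 4 fell and 2 rose. The rises were Ano1, a calcium-activated chloride channel (6.65, 7.88 and 6.96 and then 15.0, 10.9 and 15.7 CPM, 0.95, adjusted p = 0.00547), whose call was lost with limma-voom (0.0557), and Lpo, lactoperoxidase (1.83, adjusted p = 0.0118), which passed the filter through day 2 alone. Klk1, a glandular kallikrein with many close paralogs, was at 125, 49.4 and 138 CPM at day 1 and 1.83, 1.21 and 4.09 CPM at day 2 (log2 fold change -5.397 ± 1.09, adjusted p = 0.00214), and no gene named here fell by more. Mucl2, a salivary mucin-like protein, was at 3005, 2262 and 2697 and then 1147, 276 and 222 CPM (log2 fold change -2.28 ± 0.58, adjusted p = 0.00639). Prol1, a proline-rich secretory protein, followed, at 254, 184 and 252 and then 53.3, 16.2 and 5.46 CPM (log2 fold change -3.23 ± 0.61, adjusted p = 0.000999), as did the secretoglobin genes Scgb1b27, Scgb2b27 and Scgb2b26, which also have close copies (-3.27, -3.00 and -3.33). Scgb2b26 was counted well at day 1 alone. Epithelial markers summed to 315.8 ± 26.8 CPM at day 1 and 229 ± 53.7 at day 2, and 4 of 12 tested fell, Cldn4, a tight junction protein, by the lowest p (20.3, 12.8 and 15.3 and then 9.50, 3.62 and 4.21 CPM, -1.52, adjusted p = 0.00296). Without 1 sample 1 to 5 of them fell, 1 without replicate 17, and without replicate 14 the count was 3 rises and 5 falls. Each of the sums with groups that did not overlap had an exact permutation p of 0.1, the smallest the design allows (adjusted p = 0.119 over 19 measures). For the erythroid and adipocyte sums and for the share of the 10 most abundant genes (11.1% ± 1.86 at day 1, 13.4% ± 0.957 at day 2) it was 0.2.

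**Figure D4:**
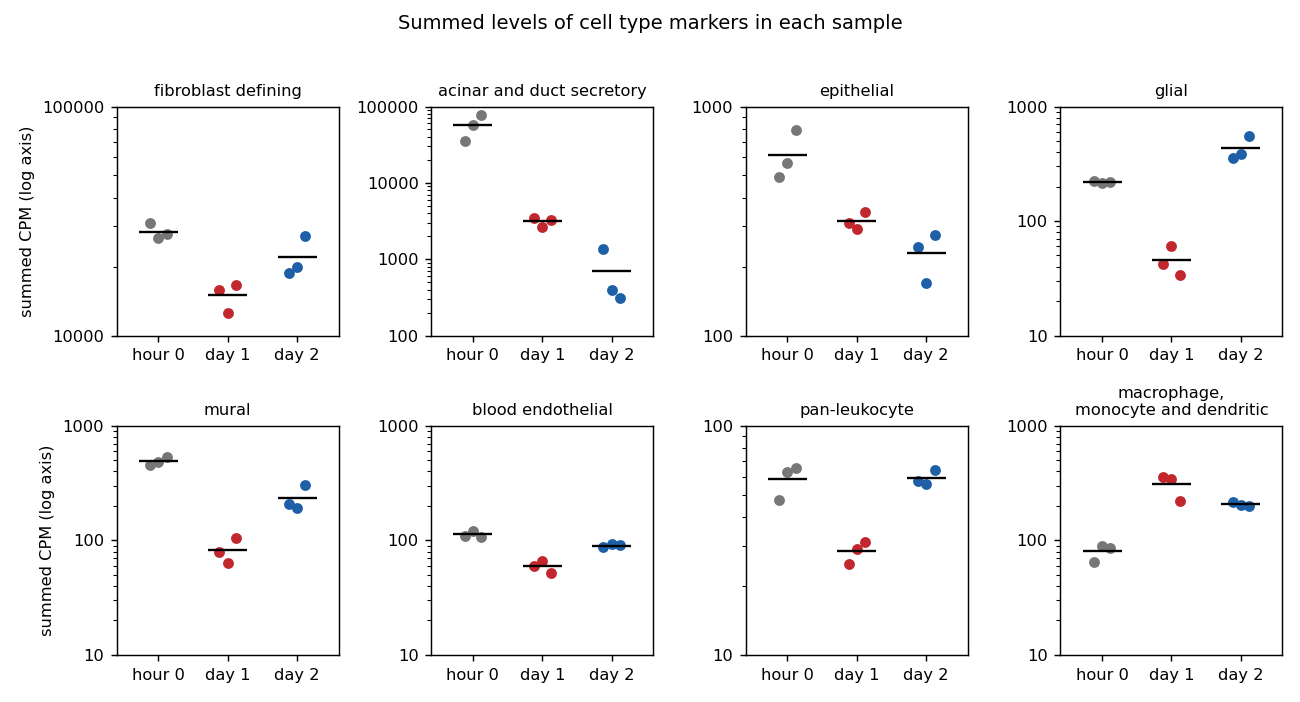
Summed TMM-scaled CPM of the marker genes of 8 cell types in each sample of hour 0 (grey), day 1 (red) and day 2 (blue), on log axes, with lines at the group means. Glial sums are 33.8 to 60.2 CPM at day 1 and 356 to 555 at day 2, above hour 0, while acinar and duct secretory sums fall from a mean of 57037 at hour 0 to 3126 at day 1 and 694 at day 2.

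The remaining large falls included genes of immune defence. Mpeg1, the pore-forming protein perforin-2, was at 794, 815 and 535 CPM at day 1 and 102, 74.6 and 134 CPM at day 2 (log2 fold change -2.79 ± 0.27, adjusted p = 4.19e-07), with 5.98, 7.73 and 11.2 CPM at hour 0. Calhm6, an ion channel of immune cells, was at 68.2, 142 and 33.4 and then 13.2, 9.39 and 12.1 CPM (log2 fold change -2.81 ± 0.45, adjusted p = 0.000144). Coch, the secreted protein cochlin, was at 35.1, 112 and 27.2 and then 3.67, 3.35 and 7.16 CPM (log2 fold change -3.60 ± 0.57, adjusted p = 0.000164), and Parm1, a mucin-like membrane protein, at 95.5, 153 and 100 and then 13.0, 12.1 and 18.5 CPM (log2 fold change -2.99 ± 0.35, adjusted p = 4.4e-06). Replicate 14 was the highest of day 1 in all 4 of these genes. None of their day 2 samples reached day 1, which the rule that named these genes required. Tmem26, a transmembrane protein gene, fell too (17.3, 20.1 and 21.3 and then 2.50, 2.82 and 2.73 CPM, -2.86), and it was counted well at day 1 alone. In absolute level the largest fall was of C3, the central complement component, at 8905, 17103 and 6827 CPM at day 1 and 3147, 2492 and 3354 CPM at day 2 (log2 fold change -1.87 ± 0.29, adjusted p = 7.48e-05). Vim, the intermediate filament of mesenchymal cells, rose in contrast from 1096, 949.6 and 1247 to 2119, 2241 and 2219 CPM (log2 fold change 1.00 ± 0.17, adjusted p = 0.000166).

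Most tested protein genes of the mitochondrial genome rose while nuclear respiratory genes did not. The share of counts on mitochondrial genes was 4.04%, 4.38% and 3.11% at day 1 and 6.21%, 6.04% and 5.26% at day 2. Of the 13 protein genes of the mitochondrial genome 8 were tested, and 7 rose, all of them counted well in both groups. The others missed the filter, among them mt-Co2 with 13, 14 and 11 counts at day 1 and mt-Co3 with 4, 2 and 2. Why their counts were so low was not tested, and the share above may leave out part of the mitochondrial RNA. The cytochrome b gene mt-Cytb was at 342, 324 and 304 CPM at day 1 and 967, 910.5 and 847 CPM at day 2 (log2 fold change 1.49 ± 0.23, adjusted p = 5.93e-05), and mt-Co1, a cytochrome oxidase subunit, at 1113, 1179.6 and 983 and then 2127, 1954 and 1751 CPM (log2 fold change 0.83 ± 0.21, adjusted p = 0.00453). Of 22 nuclear genes of the respiratory chain 8 fell and 0 rose, with a median of -0.39, or -0.30 relative to genes of like length. Without replicate 13 or 17 only 1 fell, and 2 fell without 15 or 16.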

How the data were processed

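Gene expression was measured by RNA sequencing in 18 samples of gp38+ cells, each from its own mouse, and the 3 of day 1 were compared with the 3 of day 2. The authors deposited raw counts for each Ensembl gene identifier. Use of mm10, FastQC, STAR, Subread and DESeq2 is recorded in the submitters' processing notes; versions, annotation release, strand setting and the treatment of multi-mapping reads are not given in the sources used here. Names, positions and exon lengths came from GENCODE M21 on GRCm38, which matched 55141 of 55401 identifiers; the other 260 held 0.0241% of counts.

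All 18 samples were fitted with edgeR 4.0.16 (R 4.3.3, TMM, quasi-likelihood, 12 residual degrees of freedom), keeping genes at 5 CPM or more in at least 3 of the 6 samples. The fitting script was tested on simulated data. Single measures were compared by exact permutation (scipy 1.17.1). Standard errors and p-values of genes rest on the spread within groups, estimated over all 18 samples. With 1 sample per mouse, spread between mice cannot be told apart from that of sorting and library preparation. Replicates differed by more than counting noise (chi-square per degree of freedom 16.1 to 50.3 at day 1 and 4.63 to 15.7 at day 2). Replicate numbers are unique to a sample.

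Genes were named by a rule: the 12 largest rises and falls by fold with a mean of at least 10 CPM in the higher group and no overlap, the 5 largest rises and falls in CPM, up to 4 members of each list by adjusted p, and Il6, Ccl19, Cxcl13, Pdgfra, Pdpn, Ezh2, Kdm6a and Kdm6b. Irf1, B2m, Nlrc5, Rsad2, Mx1, Ifit1, Ccl2, Cxcl1, Ch25h, Sfrp2, Sfrp4, Col4a1, Col4a2, Postn, Fn1, Cdkn1a, Top2a, Mcm2, Mcm3, Mcm6, Fos, Egr1, Sox10 and Ngfr were added after their values were seen. The groups compared and the gene lists were chosen with earlier results of these data known. The split by exon length was added after seeing the data. Alternatives were DESeq2 size factors, library totals, other filters, DESeq2 1.42.0, limma-voom (limma 3.58.1), fewer samples in the fit, subtraction of estimated background and leaving out each sample. Some genes that the rule names are not reported here.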

Additional observations from a re-analysis of the deposited data

How the results depend on the processing

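Against 5141 changed genes, a stricter filter of 20 CPM left 2410 (1292 rose, 1118 fell), of fewer genes tested. The number that fell, 2690, was 1616 with DESeq2 size factors, 1519 with library totals, 1787 with DESeq2 and 4951 with no filter. Leaving out 1 sample gave 3092 to 4957 changed genes, 2000 to 3062 rises and 1082 to 1895 falls, the fewest changed without replicate 17. The cause was not tested. In those 6 fits 59.7% to 65.0% of changed genes were higher. With the other settings the number changed was 4307 to 7459. No gene called both in a setting and in the reported fit had the opposite sign in any of the 17 settings. These settings reuse the same samples and only genes called in both were compared, so a reversal was unlikely from the outset. No paired analysis was possible because the replicate numbers are unique to a sample. Depth at day 2 and its higher background limit most what can be said of genes near 5 CPM. The trend with exon length was also present among genes counted in both groups. Depth, background and that trend ran with the day, so their part in a change cannot be told apart from that of the day.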

Other observations

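Complement genes, made in large amounts by fibroblasts, fell in 6 of 11 tested and rose in 2, 1 of the rises through day 2 alone. Serping1, the inhibitor of the first component, was at 1938, 2522 and 1702 CPM at day 1 and 759.9, 633 and 835 CPM at day 2 (log2 fold change -1.47 ± 0.21, adjusted p = 3.51e-05). C1ra, a protease of the first component, was at 733, 1030.0 and 659.6 and then 339, 276 and 328 CPM (log2 fold change -1.36 ± 0.19, adjusted p = 1.99e-05). Every day 2 sample of both genes lay below every day 1 sample. Metal and oxidative stress genes fell in 7 of 13 tested and rose in 0. The ferritin heavy chain gene Fth1 was at 3271, 2312 and 2372 and then 1438, 1025 and 1034 CPM (log2 fold change -1.19 ± 0.22, adjusted p = 0.000357), its light chain partner Ftl1 at 642, 470.3 and 582 and then 292, 232 and 207 CPM (log2 fold change -1.21 ± 0.17, adjusted p = 2.61e-05). Gclm, which limits glutathione synthesis, fell too (-1.34), as did the haem-degrading enzyme Hmox1, with overlap of the groups (-1.06).

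Glycolysis and hypoxia genes fell in 9 of 20 tested and rose in 1, with a median of -0.54 (-0.32 relative to genes of like length). The count that fell was 5 with DESeq2 size factors or library totals, 3 without replicate 13, 4 without 16 and 2 without 15 or 17. Falls among all tested genes were also fewer in these fits, at 1082 to 1616 against 2690. Gpi1, glucose phosphate isomerase, was at 274, 219 and 322 CPM at day 1 and 116, 105 and 140.0 CPM at day 2 (log2 fold change -1.17 ± 0.15, adjusted p = 6.62e-06). Hk2, the inducible hexokinase at the head of the same pathway, was the member that rose (210.3, 166 and 252 and then 371, 376 and 246 CPM, 0.66, adjusted p = 0.0235). Of 17 tested cell death and inflammasome genes 7 fell and 1 rose, beside 20.3% and 18.5% of all tested genes, and 2 to 5 fell without 1 sample. Bcl2l1, which encodes the survival protein BCL-XL, was at 154, 71.3 and 156 and then 39.8, 47.1 and 49.9 CPM (log2 fold change -1.48 ± 0.23, adjusted p = 6.79e-05). Nlrp3, the inflammasome sensor, rose from 0.867 to 6.65 CPM (2.91) and was counted well at day 2 alone. Of 19 tested cholesterol synthesis genes 1 rose, Stard4, a sterol carrier (1.36), and 2 fell, among them Ebp, a sterol isomerase (-0.75), whose call was lost with DESeq2 size factors (adjusted p = 0.0736). The rises numbered 4 with DESeq2 size factors, with library totals and without replicate 18.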
